A study of Mus musculus with 4 samples.

Results

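The genes described here are the collagen, laminin and integrin genes of 4 cultures of mouse neuromesodermal progenitors and related caudal cells, measured by single-cell RNA sequencing. They were chosen by symbol: collagen alpha chains (all numbered Col genes except Col2a1 and Col9a1, which were left out), laminin chains, and every symbol that starts with Itga or Itgb. Of 27998 genes, 85 symbols matched, and the 54 with at least 50 unique molecular identifiers (UMIs, each a counted RNA molecule) over all barcodes were kept. They are 29 collagen, 7 laminin and 16 integrin genes, and 2 further genes, Itgb1bp1 and Itgb3bp, whose symbols match although neither encodes an integrin chain. Of the 31 that were left out, 3 had no UMI. Col8a1 with 59 UMIs and Col6a3 with 60 lay just inside the minimum, and Lama4 with 39, Col20a1 with 36 and Itgb1bp2 with 36 lay just outside it.

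Each culture gave 1 library, so no test between cultures was possible and every interval below covers counting error only. All cells were of the E14Tg2a strain. Epi-NMP cells were Epi-CE cells, described next but one, that had been replated on 0.5% fibronectin at 50000 cells per cm2 for 2 days with 20 ng/ml FGF2 and 3 µM CHIR99021, a WNT pathway activator. Epi-CE-T cells came from a Bra:GFP reporter line taken through the Epi-CE protocol and sorted for GFP after 72 h, so the line and the sort cannot be told apart. Epi-CE cells came from epiblast stem cells that had been maintained with 12 ng/ml FGF2 and 25 ng/ml activin A and were plated on 0.5% fibronectin at 50000 cells per cm2. They then received 20 ng/ml FGF2 without activin A, and 3 µM CHIR99021 from day 3. For ES-NMP, embryonic stem cells were plated on 0.1% gelatine at 4440 cells per cm2, kept 48 h in N2B27 medium and given 3 µM CHIR99021 until 72 h. Fibronectin is itself a ligand of several integrins, and coating, density and starting cells all differ between ES-NMP and the other 3 cultures, so that their effects cannot be told apart.

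Levels are counts per 1000000 UMIs of a library (CPM) over the 8722 of 10579 barcodes that the deposited cell table marks TRUE, which number 1111 in Epi-NMP, 2109 in Epi-CE-T, 2386 in Epi-CE and 3116 in ES-NMP. Library totals were 22261452 UMIs in Epi-NMP, 44990488 in Epi-CE-T, 58663735 in Epi-CE and 71563029 in ES-NMP. Counts were not scaled by transcript length, so levels are compared between libraries and cells and not between genes. In Epi-NMP 57.7% of the barcodes were marked FALSE, against 3.24% to 5.23% in the other libraries. Of 10522 barcode sequences, 57 occurred in more than 1 library. T, the gene that the GFP reporter follows, was at 382 CPM in the sorted Epi-CE-T library, against 431 CPM in unsorted Epi-CE. Nkx1-2, a caudal epiblast marker, was at 12.6 CPM in Epi-CE-T, against 182 CPM in Epi-CE. A low level over a library cannot tell fewer expressing cells from less RNA per cell.

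Collagens are trimers of alpha chains. Some form fibrils, as types I, III and V do, and others form networks, as type IV does in basement membranes. Laminins are trimers of an alpha, a beta and a gamma chain and form the other network of basement membranes, on which the epiblast rests and which cells lose contact with as they ingress through the primitive streak. Integrins are pairs of an alpha and a beta chain in the cell membrane that bind fibronectin, laminins, collagens and vitronectin.

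Type IV collagen genes are arranged in head-to-head pairs, and the starts of both pairs measured here are shown because the levels of the partners are compared below. The windows run from 250 bases before to 50 bases after the start in RefSeq on GRCm38.p6, and each is written on its gene's own strand. Capitals mark CCAAT and GGGCGG on either strand, so that ATTGG and CCGCCC are matches as well.
Col4a1, chr8:11312777-11313076, minus strand: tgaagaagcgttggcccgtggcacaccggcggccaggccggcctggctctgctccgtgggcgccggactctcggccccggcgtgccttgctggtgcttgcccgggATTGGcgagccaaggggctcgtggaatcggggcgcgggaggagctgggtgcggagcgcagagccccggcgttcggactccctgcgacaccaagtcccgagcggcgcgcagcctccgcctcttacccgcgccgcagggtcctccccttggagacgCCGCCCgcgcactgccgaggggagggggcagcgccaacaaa
Col4a2, chr8:11312555-11312854, plus strand: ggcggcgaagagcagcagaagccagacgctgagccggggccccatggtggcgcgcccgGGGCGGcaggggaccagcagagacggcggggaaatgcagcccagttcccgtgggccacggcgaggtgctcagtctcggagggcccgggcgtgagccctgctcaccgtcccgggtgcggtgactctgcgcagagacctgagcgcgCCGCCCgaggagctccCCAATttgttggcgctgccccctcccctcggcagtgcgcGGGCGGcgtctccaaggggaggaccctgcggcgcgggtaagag
Col4a5, chrX:141475169-141475468, plus strand: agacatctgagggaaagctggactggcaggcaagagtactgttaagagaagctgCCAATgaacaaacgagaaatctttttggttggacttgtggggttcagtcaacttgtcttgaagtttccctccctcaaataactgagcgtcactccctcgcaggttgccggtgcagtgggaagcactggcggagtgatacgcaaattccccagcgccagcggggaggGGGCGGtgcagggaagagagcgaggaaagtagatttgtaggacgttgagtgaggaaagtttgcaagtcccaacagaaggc
Col4a6, chrX:141474027-141474326, minus strand: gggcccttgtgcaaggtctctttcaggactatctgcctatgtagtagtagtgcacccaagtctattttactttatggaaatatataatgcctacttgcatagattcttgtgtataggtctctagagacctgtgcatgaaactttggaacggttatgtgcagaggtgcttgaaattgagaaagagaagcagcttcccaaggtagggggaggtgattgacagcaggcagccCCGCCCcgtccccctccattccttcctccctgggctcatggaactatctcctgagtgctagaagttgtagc
The starts of Col4a1 and Col4a2 lie 21 bases apart, and their windows overlap by 78 bases that hold 1 GGGCGG match counted for both genes. Col4a5 and Col4a6 start 1343 bases apart on the X chromosome, and their windows do not overlap. Guanine and cytosine made up 74.0% of the Col4a1 window and 73.7% of the Col4a2 window, against 52.7% for Col4a5 and 48.3% for Col4a6. CCAAT was found in all of these windows except that of Col4a6, GGGCGG in all of them, and TATAAA in none. Of 32851 RefSeq windows of this length, 37.4% held CCAAT, 35.7% GGGCGG and 13.6% TATAAA. Of the 46 windows that 42 of the 54 genes had in the table, 26.1% held CCAAT, 63.0% GGGCGG and 6.52% TATAAA.

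The 54 genes together took 481 CPM in Epi-NMP, 587 CPM in Epi-CE-T, 448 CPM in Epi-CE and 367 CPM in ES-NMP. Collagen genes summed to 98.3 CPM in Epi-NMP, 112 CPM in Epi-CE-T, 63.5 CPM in Epi-CE and 81.5 CPM in ES-NMP. Laminin genes summed to 75.2 CPM in Epi-NMP, 87.9 CPM in Epi-CE-T, 81.7 CPM in Epi-CE and 49.8 CPM in ES-NMP. Integrin genes summed to 216 CPM in Epi-NMP, 282 CPM in Epi-CE-T, 207 CPM in Epi-CE and 149 CPM in ES-NMP. Epi-CE-T was the library with the highest level for 25 of the 54 genes, against 33.6% of all 14336 genes with at least 50 UMIs, and ES-NMP the one with the lowest for 20, against 29.6%. Most of the genes were sparse: 10 reached 10 CPM in any library and 17 stayed under 2 CPM in all of them. Over the 52 genes seen in every library, the highest level was a median of 3.68 times the lowest, and 12 genes spread over more than 10-fold. The same spread was not computed for all genes, so it cannot be called wide for these. Some of the widest rest on few UMIs, such as 1 of Col8a2 in ES-NMP and 8 of Col3a1 in Epi-CE.

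**Figure D1:**
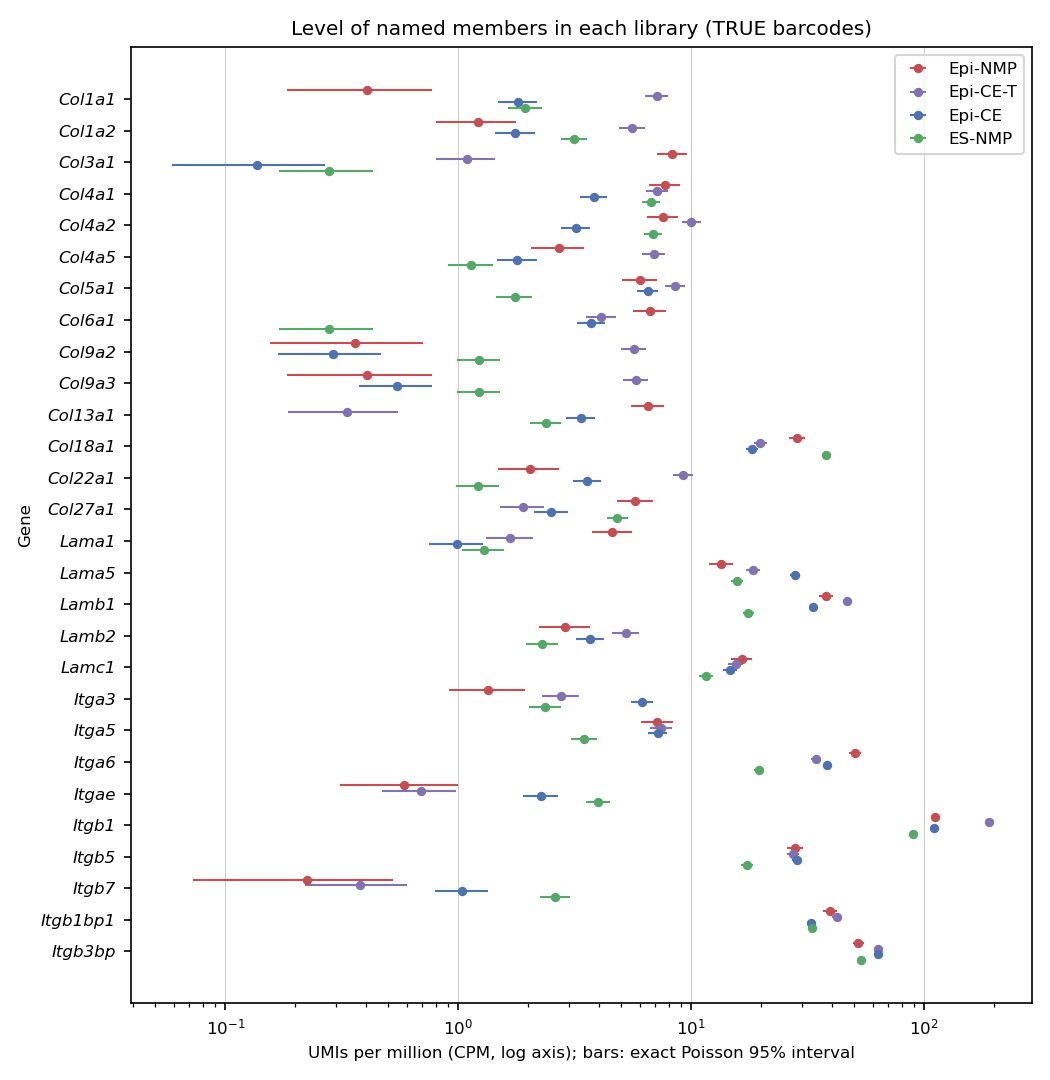
Level in the 4 libraries of each gene that the naming rule gives, with Lama1 added after its values were seen, in CPM on a log axis, with exact Poisson 95% intervals that cover counting error only. Itgb1 was at 189 CPM in Epi-CE-T, against 89.4 CPM in ES-NMP, and Col3a1 at 8.27 CPM in Epi-NMP, against 0.136 CPM in Epi-CE.

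Among the network-forming collagens, Col4a1 and Col4a2 encode the chains of the common type IV network. Col4a1 was at 7.73 CPM in Epi-NMP, 7.13 CPM in Epi-CE-T, 3.82 CPM in Epi-CE and 6.72 CPM in ES-NMP. Col4a2 was at 7.55 CPM in Epi-NMP, 10.0 CPM in Epi-CE-T, 3.19 CPM in Epi-CE and 6.86 CPM in ES-NMP. Both were lowest in Epi-CE, whose intervals did not reach those of the other libraries. Per Col4a1 UMI there were 0.977 Col4a2 UMIs in Epi-NMP, 1.40 in Epi-CE-T (95% interval 1.21 to 1.62), 0.835 in Epi-CE and 1.02 in ES-NMP, and the interval of Epi-CE-T lay above those of Epi-CE and ES-NMP but met that of Epi-NMP. Exons of Col4a1 and Col4a2 overlap on opposite strands in GENCODE M21, only at the starts of both genes, within positions 11312805 to 11312826 of chromosome 8. Exons of Gm15419, an antisense gene, also overlap Col4a2 on the opposite strand. No source used here says whether reads were counted by strand. Col4a5 and Col4a6 encode the chains of a more restricted type IV network. Col4a5 was at 2.70 CPM in Epi-NMP, 6.89 CPM in Epi-CE-T, 1.79 CPM in Epi-CE and 1.13 CPM in ES-NMP. Col4a6 was at 1.57 CPM in Epi-NMP, 2.80 CPM in Epi-CE-T, 1.04 CPM in Epi-CE and 0.713 CPM in ES-NMP, in the same order of libraries as Col4a5. Per Col4a5 UMI there were 0.583 Col4a6 UMIs in Epi-NMP, 0.406 in Epi-CE-T, 0.581 in Epi-CE and 0.630 in ES-NMP. The first pair thus stood lowest in Epi-CE and the second in ES-NMP. Col18a1, a heparan sulphate-bearing collagen of basement membranes, was at 28.5 CPM in Epi-NMP, 19.8 CPM in Epi-CE-T, 18.2 CPM in Epi-CE and 37.8 CPM in ES-NMP. It was highest in ES-NMP, and the intervals of Epi-CE-T and Epi-CE overlapped.

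Fibril-forming collagens split by library. Col1a1 and Col1a2, the chains of type I collagen, were both highest in Epi-CE-T. Col1a1 was at 0.404 CPM in Epi-NMP, 7.09 CPM in Epi-CE-T, 1.81 CPM in Epi-CE and 1.94 CPM in ES-NMP. Col1a2 was at 1.21 CPM in Epi-NMP, 5.58 CPM in Epi-CE-T, 1.76 CPM in Epi-CE and 3.14 CPM in ES-NMP. Col3a1, the chain of type III collagen, was instead highest in Epi-NMP, at 8.27 CPM (184 UMIs), against 1.09 CPM in Epi-CE-T, 0.136 CPM in Epi-CE (8 UMIs) and 0.279 CPM in ES-NMP (20 UMIs). Col5a1, whose type V chain nucleates fibrils, was at 6.02 CPM in Epi-NMP, 8.51 CPM in Epi-CE-T, 6.49 CPM in Epi-CE and 1.75 CPM in ES-NMP. It was thus low in ES-NMP alone. Col27a1, another fibrillar chain, was higher in ES-NMP than in Epi-CE, unlike Col5a1, at 5.75 CPM in Epi-NMP, 1.89 CPM in Epi-CE-T, 2.51 CPM in Epi-CE and 4.82 CPM in ES-NMP.

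Collagens of other kinds also had wide ranges. Col6a1, a chain of the beaded filaments of type VI collagen, was at 6.65 CPM in Epi-NMP, 4.11 CPM in Epi-CE-T, 3.72 CPM in Epi-CE and 0.279 CPM in ES-NMP (20 UMIs). Its partner Col6a2 was also lowest in ES-NMP, at 1.39 CPM in Epi-NMP, 1.11 CPM in Epi-CE-T, 1.02 CPM in Epi-CE and 0.405 CPM in ES-NMP. Col9a2 and Col9a3 encode chains of the fibril-associated type IX collagen of cartilage and notochord. Col9a2 was at 0.359 CPM in Epi-NMP, 5.67 CPM in Epi-CE-T, 0.290 CPM in Epi-CE and 1.23 CPM in ES-NMP. Col9a3 was at 0.404 CPM in Epi-NMP, 5.78 CPM in Epi-CE-T, 0.545 CPM in Epi-CE and 1.23 CPM in ES-NMP. Both thus stood over 4 times higher in Epi-CE-T than in any other library. Col22a1, a collagen of tissue junctions, was at 2.02 CPM in Epi-NMP, 9.20 CPM in Epi-CE-T, 3.56 CPM in Epi-CE and 1.22 CPM in ES-NMP. Col13a1, a transmembrane collagen, was at 6.51 CPM in Epi-NMP, 0.333 CPM in Epi-CE-T (15 UMIs), 3.36 CPM in Epi-CE and 2.38 CPM in ES-NMP, and its 4 intervals did not overlap. Col8a2, a network collagen chosen for mention after its values were seen, had 134 UMIs in Epi-CE-T (2.98 CPM), against 1 to 6 UMIs in each other library.

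The laminin chains did not share an order of libraries. Lamb1, a beta chain of early basement membranes, was at 37.8 CPM in Epi-NMP, 46.6 CPM in Epi-CE-T, 33.3 CPM in Epi-CE and 17.6 CPM in ES-NMP, with no overlap of intervals. Lamc1, the gamma chain of most laminins, moved less, at 16.4 CPM in Epi-NMP, 15.5 CPM in Epi-CE-T, 14.7 CPM in Epi-CE and 11.5 CPM in ES-NMP. Lamb2 was at 2.87 CPM in Epi-NMP, 5.22 CPM in Epi-CE-T, 3.68 CPM in Epi-CE and 2.29 CPM in ES-NMP. The alpha chains went separate ways. Lama5, the widely used alpha chain, was at 13.4 CPM in Epi-NMP, 18.5 CPM in Epi-CE-T, 27.8 CPM in Epi-CE and 15.7 CPM in ES-NMP. Lama1, the alpha chain of the first embryonic basement membranes, was at 4.58 CPM in Epi-NMP, 1.67 CPM in Epi-CE-T, 0.989 CPM in Epi-CE and 1.29 CPM in ES-NMP, and was highest in Epi-NMP. Lama5 was lowest in Epi-NMP and ES-NMP, whose intervals for it overlapped. Per Lama5 UMI there were 0.341 Lama1 UMIs in Epi-NMP (95% interval 0.270 to 0.428), 0.0903 in Epi-CE-T, 0.0356 in Epi-CE and 0.0816 in ES-NMP. Lamb3 encodes a beta chain of the laminin that anchors the epidermis. Lamb3 had no UMI in Epi-NMP, which allows up to 0.135 CPM, against 0.133 CPM in Epi-CE-T, 0.955 CPM in Epi-CE and 0.475 CPM in ES-NMP. Lama1 and Lamb3 were chosen for mention after their values were seen.

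Among integrins, Itgb1, the beta chain that most alpha chains pair with, was at 111 CPM in Epi-NMP, 189 CPM in Epi-CE-T, 110 CPM in Epi-CE and 89.4 CPM in ES-NMP. Epi-CE-T stood above the rest, and Epi-NMP and Epi-CE could not be told apart by their intervals. Itga5, whose pair with Itgb1 is the classical fibronectin receptor, was at 7.14 CPM in Epi-NMP, 7.42 CPM in Epi-CE-T, 7.18 CPM in Epi-CE and 3.47 CPM in ES-NMP. Epi-NMP, Epi-CE-T and Epi-CE had overlapping intervals for it, all above that of ES-NMP. Itgb5, which pairs with Itgav and binds vitronectin, had the same arrangement, at 27.9 CPM in Epi-NMP, 27.3 CPM in Epi-CE-T, 28.3 CPM in Epi-CE and 17.3 CPM in ES-NMP. Of the alpha chains of laminin receptors, Itga6 was at 50.4 CPM in Epi-NMP, 34.4 CPM in Epi-CE-T, 38.1 CPM in Epi-CE and 19.5 CPM in ES-NMP. The other, Itga3, was at 1.35 CPM in Epi-NMP, 2.76 CPM in Epi-CE-T, 6.15 CPM in Epi-CE and 2.36 CPM in ES-NMP, and was therefore lowest in the library where Itga6 was highest. Itgae and Itgb7 form a receptor of E-cadherin. Itgae was at 0.584 CPM in Epi-NMP, 0.689 CPM in Epi-CE-T, 2.27 CPM in Epi-CE and 4.00 CPM in ES-NMP. Itgb7 followed the same order, at 0.225 CPM in Epi-NMP (5 UMIs), 0.378 CPM in Epi-CE-T, 1.04 CPM in Epi-CE and 2.61 CPM in ES-NMP. Itga4, a fibronectin and VCAM1 receptor chain chosen after its values were seen, was at 0.270 CPM in Epi-NMP, 1.16 CPM in Epi-CE-T, 0.119 CPM in Epi-CE and 0.405 CPM in ES-NMP. Of its 97 UMIs over all barcodes, 52 were in Epi-CE-T, and without them Itga4 would not have passed the minimum of 50. Itgb1bp1, which binds the tail of Itgb1, stayed between 32.8 and 42.1 CPM, and Itgb3bp, a centromere protein, between 52.2 and 63.2 CPM. Exons of protein-coding genes on the opposite strand overlap Itga4 (Cerkl), Itgb1bp1 (Asap2 and Cpsf3), Itgb3bp (Pgm1) and Col9a3 (Tcfl5), and those of noncoding genes overlap Col4a2, Col5a1, Col22a1, Itga8, Itgav and Itgb4. The use of strand in counting is not given in the sources used here, so the counts of these genes are uncertain to that extent. On the same strand, exons of the protein-coding Gm49395 overlap Itga1, and those of microRNA genes overlap Col3a1 and Col7a1.

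Of the 4 comparisons between libraries, those over ES-NMP share that library and those over Epi-CE share Epi-CE, so each is given with its own values only. Higher and lower mean a CPM that differed by 1.5-fold or more, and a gene was measured if both libraries together held 50 UMIs of it. In Epi-CE over ES-NMP, 16 of 47 measured members were higher and 13 lower. Their median ratio was 0.30 on the log2 scale. Of all 13553 genes measured there, 21.1% were higher and 16.2% lower, and their median was 0.03. Laminins leaned upwards, with 4 of 7 higher and 1 lower, while of 23 collagens 7 were higher and 9 lower. Col6a1 stood 13.3-fold higher in Epi-CE (95% interval 8.40 to 22.2), Col5a1 3.72-fold, Col22a1 2.93-fold and Itga3 2.61-fold. Col9a2 stood 4.24-fold lower, Itgb7 2.51-fold, Col9a3 2.25-fold and Col4a2 2.15-fold.

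In Epi-NMP over ES-NMP, 19 of 44 measured members were higher and 12 lower, with a median of 0.29. Over 12949 genes, 16.0% were higher and 18.4% lower, and the median was 0.02. Col3a1 stood 29.6-fold higher in Epi-NMP (95% interval 18.6 to 49.6), Col6a1 23.8-fold (14.9 to 40.1), Col5a1 3.45-fold and Itga6 2.58-fold. Itgb7 stood 11.6-fold lower (4.90 to 36.2), Itgae 6.84-fold and Col1a1 4.80-fold. Of 14 integrins 7 were higher and 5 lower, so that 2 stayed within 1.5-fold.

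When Epi-CE cells had been replated, in Epi-NMP over Epi-CE, 13 of 42 measured members were higher and 10 lower, with a median of 0.04. Over 12628 genes, 14.9% were higher and 22.7% lower, and the median was -0.01. Of 19 collagens 10 were higher and 3 lower, and of 15 integrins 2 were higher and 5 lower. The difference between these groups of genes was not tested. Col3a1 stood 60.6-fold higher in Epi-NMP (95% interval 30.1 to 142), against only 8 UMIs in Epi-CE. Lama1 stood 4.63-fold higher, Col4a2 2.37-fold and Col4a1 2.02-fold. Itga3 stood 4.57-fold lower, Col1a1 4.47-fold, Itgae 3.88-fold and Lama5 2.07-fold. Itga5, Itgb1 and Itgb5 differed by at most 1.01-fold between these libraries.

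In sorted Epi-CE-T over unsorted Epi-CE, 19 of 47 measured members were higher and 8 lower, with a median of 0.36. Over 13119 genes, 18.1% were higher and 13.1% lower, and the median was 0.04. The median log2 ratio of the 23 collagens was 1.05, with 13 of them higher in Epi-CE-T and 2 lower. Col9a2 stood 19.6-fold higher in Epi-CE-T (95% interval 12.0 to 34.1), Col9a3 10.6-fold (7.32 to 15.8), Col3a1 7.99-fold, Col1a1 3.92-fold, Col4a5 3.85-fold and Col4a2 3.14-fold. The collagens that stood lower were Col13a1, 10.1-fold, and Col16a1, 6.56-fold, the second of which was chosen after its values were seen. Among integrins, Itgb1 stood 1.71-fold higher, while Itgae stood 3.29-fold lower, Itgb7 2.75-fold and Itga3 2.23-fold.

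**Figure D2:**
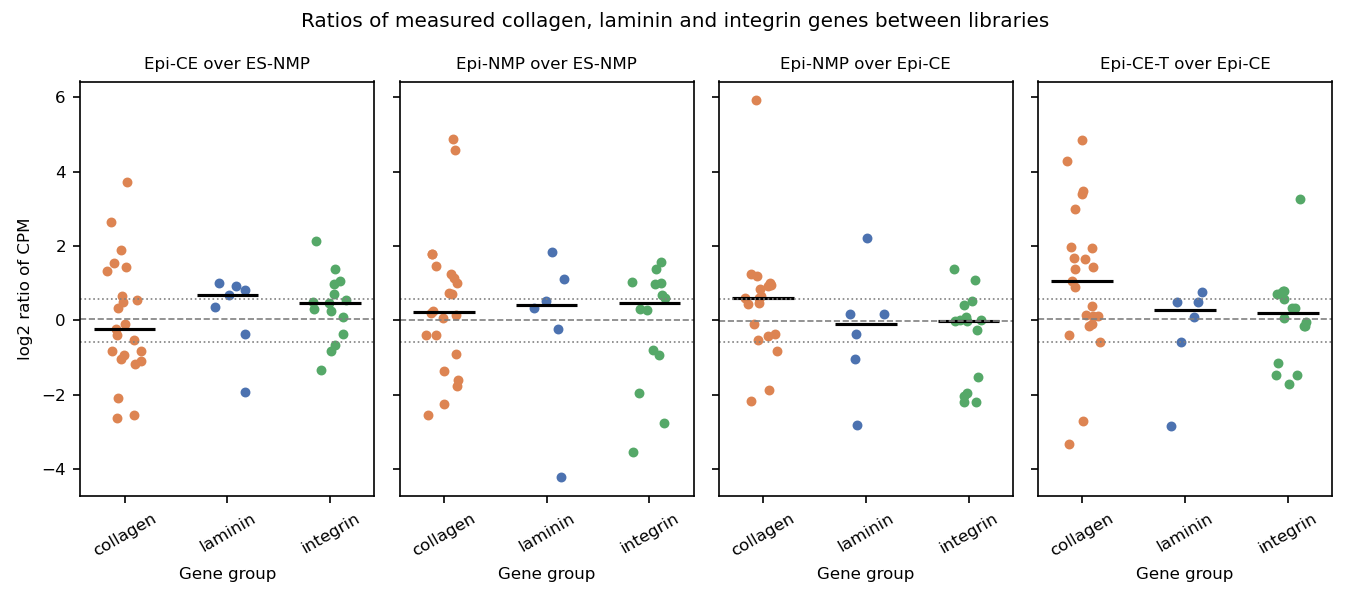
Log2 ratio of CPM for each measured collagen, laminin and integrin gene in the 4 comparisons, with black bars at the group medians and dotted lines at 1.5-fold. The collagen median was -0.22 in Epi-CE over ES-NMP, 0.23 in Epi-NMP over ES-NMP, 0.59 in Epi-NMP over Epi-CE and 1.05 in Epi-CE-T over Epi-CE.

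Genes that act on these proteins were counted from lists chosen with earlier results of these data known. Of the enzymes and chaperones that make and cross-link collagen, 15 of 24 were higher and none lower in Epi-CE over ES-NMP, against 21.1% and 16.2% of all genes. There P4ha1, a collagen prolyl hydroxylase subunit, was at 91.0 CPM in Epi-CE, against 17.7 CPM in ES-NMP. In Epi-NMP over Epi-CE, 12 of 24 were lower and 1 higher, against 22.7% and 14.9% of all genes, and the lysyl oxidase Loxl2 was at 16.6 CPM in Epi-NMP, against 43.8 CPM in Epi-CE. In Epi-CE-T over Epi-CE, 16 of 26 were higher and 2 lower, against 18.1% and 13.1% of all genes, and Loxl2 was at 115 CPM in Epi-CE-T, against 43.8 CPM in Epi-CE. Of the basement membrane partners, 6 of 11 were higher and 1 lower in Epi-CE-T over Epi-CE, and of the matrix breakdown list 9 of 10 were higher and 1 lower, against the same 18.1% and 13.1%. Basement membrane partners had the same counts in Epi-CE over ES-NMP, against 21.1% and 16.2%, and in Epi-NMP over ES-NMP, against 16.0% and 18.4%. In Epi-NMP over Epi-CE 3 of these 11 were higher and 3 lower, against 14.9% and 22.7%. Of the integrin adhesion complex 2 of 21 were higher and 3 lower in Epi-CE-T over Epi-CE, the second of which is near the 13.1% of all genes. In Epi-NMP over Epi-CE none of 20 was higher and 3 were lower, against 14.9% and 22.7%. Of the interstitial matrix list, Vtn, the integrin ligand vitronectin, was at 96.8 CPM in Epi-CE-T, against 2.73 CPM in Epi-CE. Bgn, a proteoglycan that binds collagen, was at 29.5 CPM in Epi-NMP, against 0.307 CPM in ES-NMP. Of the other laminin receptors, Bcam was at 12.8 CPM in Epi-NMP, against 59.4 CPM in Epi-CE.

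Cells were clustered without the genes described here. Col2a1 and Col9a1, which are not among them, did take part, and both are among the leading genes of cluster 18. Of 19 clusters, 18 held at least 50 cells. Clusters were named from marker lists, and cluster 7, named smooth muscle or contractile-like from Acta2, Tagln and Cnn1 among its leading genes, was the only one with at least 50 cells from each of 3 libraries, with 94 cells of Epi-CE-T, 93 of Epi-CE, 72 of ES-NMP and 6 of Epi-NMP. The other leading genes of cluster 7 were Anxa1, Cryab, Sfn, Acta1, S100a6, Plaur and Wisp1. Most other clusters came almost wholly from 1 library, so cluster and library cannot be told apart in them. Of the 54 genes, 17 had their highest level in cluster 7, against 8.89% of all 14336 genes with at least 50 UMIs. Another 10 were highest in cluster 18, a node or notochord-like cluster of Epi-CE-T, which is close to the 17.5% of all genes. In cluster 14, an unnamed cluster of Epi-NMP led by the somite gene Meox1, 7 were highest, against 5.08% of all genes. Cluster 3, naive pluripotent-like cells of ES-NMP, held the lowest level of 20 of the genes, against 23.8% of all genes.

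**Figure D3:**
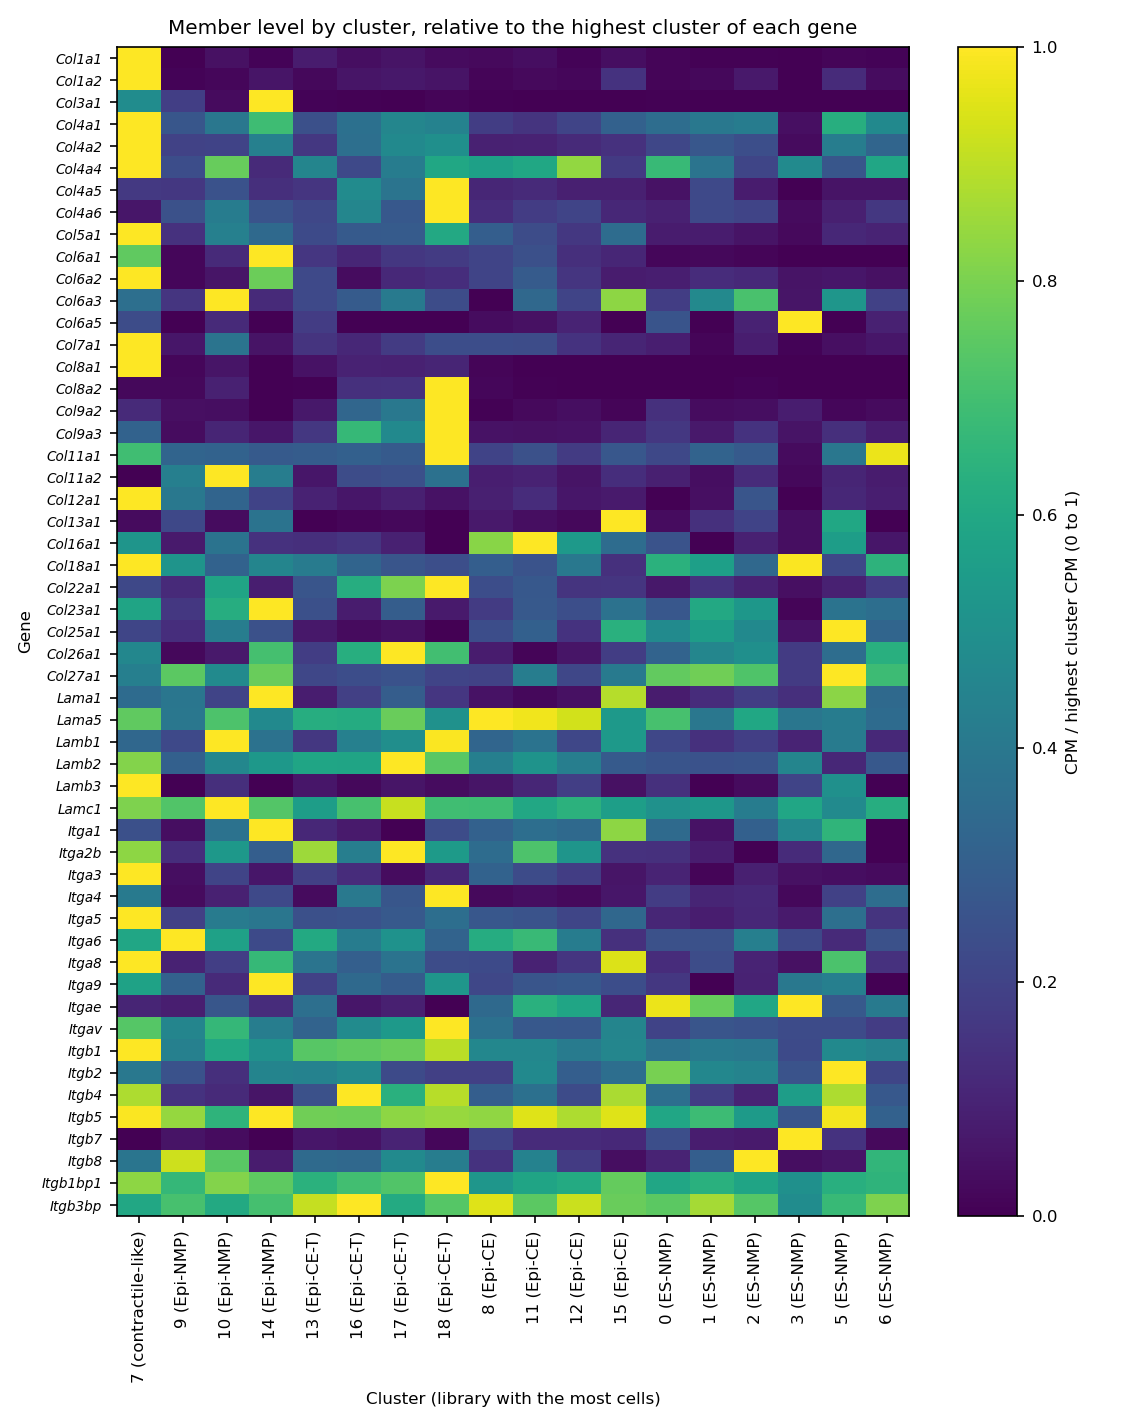
Level of 53 of the 54 genes in the 18 clusters of at least 50 cells, as a share of that gene's highest cluster, with clusters ordered by the library that gave most of their cells. Cluster 7 is at the left edge and holds the highest value of 17 genes when all 54 are counted. Cluster 3 holds that of Col6a5, Itgae and Itgb7.

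Contractile-like cells held 854 CPM of the 54 genes together, against 438 CPM in all other cells. In them 26 of the 54 genes were 2-fold or more above the other cells and 6 were 2-fold or more below, against 8.68% and 9.78% of all 14270 measured genes, a background that includes the genes that formed the clusters. These counts were 23 above and 11 below at Leiden resolution 0.5, and 17 above and 14 below when all barcodes were clustered. The summed level of the 9 contractile markers over whole libraries was 859 CPM in Epi-NMP, 624 CPM in Epi-CE-T, 1369 CPM in Epi-CE and 616 CPM in ES-NMP. Fibrillar collagens were among the genes 2-fold or more above. In Epi-CE-T, Col1a1 was at 106 CPM in contractile-like cells, against 2.38 CPM in the other cells of that library. In Epi-CE it was at 9.91 CPM in contractile-like cells, against 1.30 CPM in the others, and in ES-NMP at 55.5 CPM, against 0.374 CPM in the others. The 2.31% to 4.46% of cells in this class thus held 68.0% of all Col1a1 UMIs of Epi-CE-T, 32.1% of those of Epi-CE and 81.3% of those of ES-NMP. Col1a2 was at 77.7 CPM in contractile-like cells of Epi-CE-T, against 2.14 CPM in its other cells. It was at 7.87 CPM in those of Epi-CE, against 1.38 CPM in its other cells, and at 72.7 CPM in those of ES-NMP, against 1.11 CPM in the other cells. Col3a1 was at 21.5 CPM in contractile-like cells of Epi-CE-T, against 0.116 CPM in its other cells, and at 7.86 CPM in those of ES-NMP, against 0.0575 CPM in the other cells.

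The extent of this class depends on the clustering. At Leiden resolution 0.5 it held 18 cells of Epi-CE-T, 24 of Epi-CE and 91 of ES-NMP, and at resolution 2.0 it held 80 cells of Epi-CE-T, 16 of Epi-CE and 66 of ES-NMP. At resolution 2.0 a separate unnamed cluster with 193 cells of Epi-CE passed 6 contractile markers, none of them among its leading genes. Plaur, Sfn and S100a6 were among its leading genes, as they were in cluster 7. Whether its cells were in cluster 7 was not tested. When all barcodes were clustered the contractile-like class held only 4 cells of Epi-CE-T, 139 of Epi-CE and 98 of ES-NMP. The Col1a1 level of the class over the other cells was 44.6 times in Epi-CE-T, 7.60 times in Epi-CE and 149 times in ES-NMP. At resolution 0.5 it was 44.6 times in Epi-CE-T, 13.6 times in Epi-CE and 129 times in ES-NMP. At resolution 2.0 it was 46.2 times in Epi-CE-T, 22.4 times in Epi-CE and 165 times in ES-NMP. With all barcodes it was 3.19 times in Epi-CE and 127 times in ES-NMP, while the 4 cells of Epi-CE-T had no UMI of Col1a1, Col1a2 or Col3a1. The Epi-CE-T values of these genes thus hold for the named class only in clusterings of the TRUE barcodes. With all barcodes, 101 cells of Epi-CE-T fell in an unnamed cluster that passed 3 fibroblast and 2 contractile markers. Anxa1 and Wisp1 were among its leading genes, as they were in cluster 7. Whether it holds the same cells was not tested. With all barcodes, Col1a2 in the contractile-like class in Epi-CE was at 0.857 CPM (4 UMIs), against 1.80 CPM in its other cells. This turns its direction there (0.476 times, 95% interval 0.127 to 1.26), and Col3a1 had no UMI in the class in Epi-CE. These other clusterings were looked at within libraries after the data had been seen.

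Within each of these libraries the class also held more of several receptors. Itga5 was at 22.5 CPM in contractile-like cells of Epi-CE-T, against 6.71 CPM in its other cells. In Epi-CE it was at 20.1 CPM in the class, against 6.37 CPM in the others, and in ES-NMP at 32.0 CPM in the class, against 2.63 CPM in the others. Itgb1 was at 287 CPM in contractile-like cells of Epi-CE-T, against 185 CPM in its other cells. In Epi-CE it was at 184 CPM in the class, against 106 CPM, and in ES-NMP at 274 CPM, against 84.0 CPM. The class was 2-fold or more above the other cells for 22 of 44 genes in Epi-CE-T, against 7.15% of all genes there. In Epi-CE it was so for 12 of 43 genes, against 6.44%, and in ES-NMP for 28 of 51 genes, against 15.4%. These counts take genes with at least 20 UMIs in the library. In all 3 libraries 8 of 37 genes were 2-fold or more above, against 1.97% of all genes, and they were Col1a1, Col1a2, Col5a1, Col6a1, Col7a1, Col18a1, Itga5 and Itga8. For Col6a1 in ES-NMP this rested on 2 UMIs in the class. The interval of the ratio lay above 1 in all 3 libraries for 9 of the 54 genes, against 5.45% of all genes.

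Itga3 stood above the other cells in some of the libraries. It was at 3.91 CPM in contractile-like cells of Epi-CE-T, against 2.70 CPM in the other cells, with an interval that reached this level. It was at 26.5 CPM in those of Epi-CE, against 4.89 CPM in its other cells, and at 33.9 CPM in those of ES-NMP, against 1.44 CPM in its other cells. In Epi-CE its ratio of 5.43 was 2.11 at resolution 0.5 (95% interval 0.957 to 4.05) and 2.32 at resolution 2.0 (0.927 to 4.83), so that both intervals reached 1, and 4.97 with all barcodes.

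**Figure D4:**
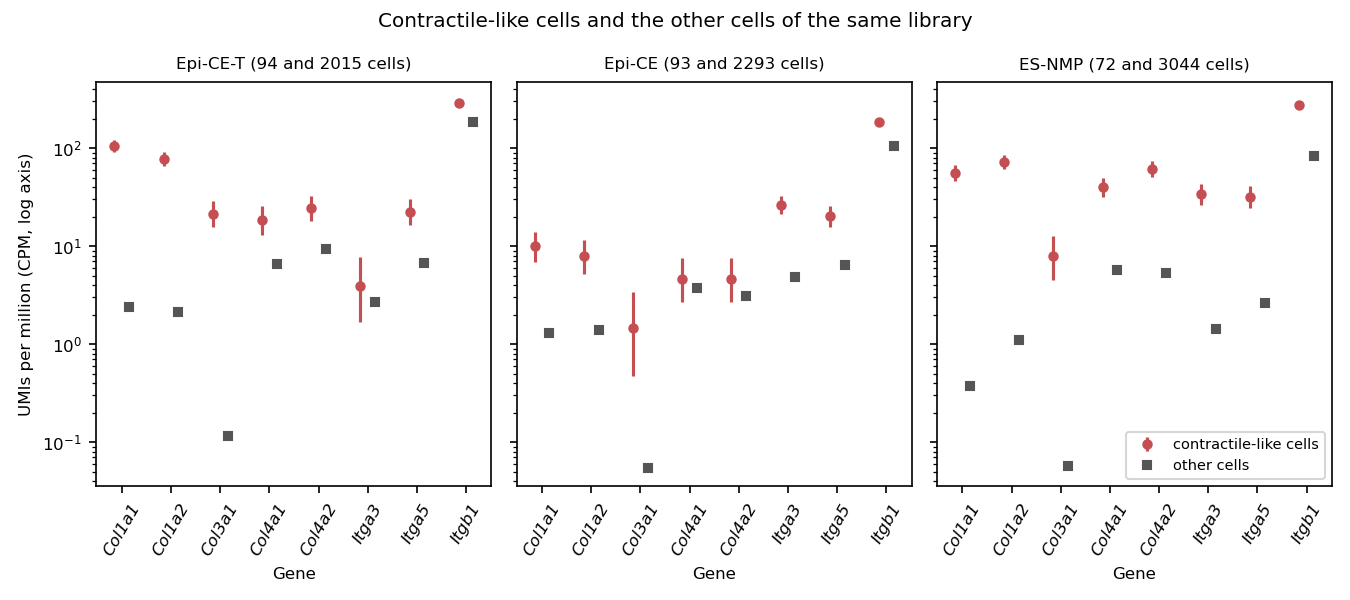
Level of 8 genes in contractile-like cells (circles, with exact Poisson 95% intervals) and in the other cells of the same library (squares), in CPM on a log axis. With this clustering Col1a1 and Col1a2 stood above the other cells in all 3 libraries, while Itga3 had an interval in Epi-CE-T that reached the level of the other cells.

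These few cells bear on the ratios between libraries. Without them, in an alternative chosen after seeing the data, Col1a1 in Epi-CE-T over Epi-CE was 1.82-fold higher in place of 3.92-fold, and in Epi-CE over ES-NMP it was 3.49-fold higher in place of 1.07-fold lower. In Epi-NMP over ES-NMP Col1a1 was 1.18-fold lower without them, in place of 4.80-fold, and its interval included equal levels. Col1a2 was then 1.24-fold higher in Epi-CE over ES-NMP, in place of 1.79-fold lower, and 1.10-fold higher in Epi-NMP over ES-NMP, in place of 2.59-fold lower. The intervals of these Col1a2 ratios, 0.893 to 1.73 and 0.685 to 1.73, both included equal levels. Without the contractile-like cells Col3a1 kept 182 UMIs in Epi-NMP, 5 in Epi-CE-T, 3 in Epi-CE and 4 in ES-NMP, so that its ratios rest on few UMIs. It was 143-fold higher in Epi-NMP over ES-NMP (95% interval 55.04 to 532), in place of 29.6-fold, and 152-fold higher in Epi-NMP over Epi-CE (51.1 to 743), in place of 60.6-fold. In Epi-CE-T over Epi-CE it was 2.14-fold higher (0.417 to 13.8), in place of 7.99-fold. The counts of members higher or lower stayed within 1.5 times of the full counts in all 4 comparisons.

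Node or notochord-like cells came from clusters 10, 16 and 18, and different clusters held most of them in each library: cluster 10 in Epi-NMP and Epi-CE, and clusters 16 and 18 in Epi-CE-T. Cluster 17, with 539 cells of Epi-CE-T, passed 6 node or notochord markers, against 3 for cluster 18. It stayed unnamed because none of these was among its leading genes. Its cells therefore count among the other cells of Epi-CE-T in the values of this class. The class had 13 of the 54 genes 2-fold or more above the other cells, against 10.7% of all genes. Lamb1 was at 141 CPM in node or notochord-like cells of Epi-NMP, against 27.9 CPM in the other cells of that library. In Epi-CE-T it was at 63.7 CPM in the class, against 32.0 CPM in the others, and in Epi-CE at 55.7 CPM, against 32.5 CPM in the others. Col4a5 was at 5.69 CPM in the class in Epi-NMP, against 2.41 CPM in the other cells, and at 10.5 CPM in Epi-CE-T, against 3.80 CPM. In Epi-CE it was at 5.57 CPM in the class, against 1.65 CPM in the other cells. Counted within libraries, 4 of 35 genes were 2-fold or more above in Epi-NMP, against 9.05% of all genes, 8 of 44 in Epi-CE-T, against 4.27%, and 7 of 43 in Epi-CE, against 7.89%. Col4a5 alone of 30 genes was so in all 3 libraries, against 1.15% of all genes. Col22a1 and Itgav, the alpha chain of vitronectin receptors, were the other genes whose interval lay above the other cells in all 3 libraries, which makes 4 of the 54, against 5.67% of all 14336 genes. Col9a2, at 8.57 CPM in the class in Epi-CE-T, against 3.18 CPM in the other cells, had 1 UMI in the class in each of Epi-NMP and Epi-CE. Col8a2 was at 5.49 CPM in the class in Epi-CE-T, against 0.825 CPM in the other cells, and 114 of its 146 UMIs over all barcodes came from there. The summed level of the 10 node or notochord markers was 56.2 CPM in Epi-NMP, 243 CPM in Epi-CE-T, 87.0 CPM in Epi-CE and 8.15 CPM in ES-NMP, with Foxd4 at 0 in Epi-NMP, and its part in the library ratios of Col9a2, Col9a3 and Col4a5 was not tested.

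Naive pluripotent-like cells, all 688 of them in ES-NMP, stood at the other end. They held 274 CPM of the 54 genes, against 395 CPM in the other ES-NMP cells, and 34 of the 54 genes were 2-fold or more below all other cells, against 28.8% of all genes. Col4a1 and Col4a2 were both at 0.742 CPM (12 UMIs each) in naive pluripotent-like cells, against 8.47 and 8.65 CPM in the other ES-NMP cells. Itgb1 was at 52.2 CPM in naive pluripotent-like cells, against 100 CPM in the others, and Lamb1 at 9.65 CPM, against 19.9 CPM. The genes 2-fold or more above all other cells were Col6a5, Col18a1, Itgae and Itgb7, which is 4 of 54, against 7.92% of all genes. Itgb7 was at 7.61 CPM in naive pluripotent-like cells, against 1.16 CPM in the other ES-NMP cells, and Col18a1 at 56.5 CPM, against 32.4 CPM in those cells. Without the naive pluripotent-like cells, Itgb7 in Epi-CE over ES-NMP was 1.11-fold lower in place of 2.51-fold, and in Epi-NMP over ES-NMP 5.14-fold lower in place of 11.6-fold. The summed level of the 12 naive markers was 32.1 CPM in Epi-NMP, 31.2 CPM in Epi-CE-T, 80.4 CPM in Epi-CE and 1849 CPM in ES-NMP, with Zfp42 at 0 in Epi-NMP and Epi-CE-T and Dppa3 at 0 in Epi-NMP.

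Mesodermal clusters held other matrix genes. In the paraxial mesoderm-like cells of Epi-CE (221 cells), Col13a1 was at 25.7 CPM, against 1.05 CPM in the other Epi-CE cells, and Lama1 at 6.75 CPM, against 0.395 CPM. This class had 8 genes 2-fold or more above all other cells, against 3.43% of all genes. In cluster 14 of Epi-NMP, Col3a1 was at 17.9 CPM, Col6a1 at 18.0 CPM and Lama1 at 7.75 CPM, the highest of any cluster for each. Cluster 9, the largest of Epi-NMP and led by Hox genes, had Col3a1 at 3.29 CPM and Col6a1 at 0.329 CPM. The order of Itga6 was the reverse, at 72.1 CPM in cluster 9 and 16.1 CPM in cluster 14. Caudal epiblast or NMP-like cells had 4 genes 2-fold or more above the other cells, against 2.38% of all genes, and neural-like cells 3, against 3.92%.

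The shares of cells with a UMI followed these levels after each cell had been thinned to 8000 UMIs. Col1a1 was seen in 17.0% of the 265 contractile-like cells (45 cells, exact Clopper-Pearson 95% interval 12.7% to 22.1%), or 24.9% before thinning. It was seen in none of the 688 naive pluripotent-like cells, where 3 cells, the limit that a count of 0 allows, would be 0.436%. Such a limit holds for cells with a UMI, not for cells that express the gene. Itgb7 was seen in 6.83% of the naive pluripotent-like cells (16.0% before thinning), and in none of the 265 contractile-like cells, with a limit of 1.13% by the same count. Median depths before thinning were 25103 UMIs in contractile-like and 22805 UMIs in naive pluripotent-like cells. Lamb1 was seen in 50.6% of cells of cluster 18 and in 8.28% of naive pluripotent-like cells.

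Over the 18 clusters, the partners of each type IV pair whose starts are printed above had similar patterns. Col4a1 ran from 0.742 to 18.2 CPM and Col4a2 from 0.742 to 26.3 CPM, with a Spearman correlation of 0.93 and a Pearson correlation of 0.94 on log2(CPM + 1). Col4a5 ran from 0 to 15.8 CPM and Col4a6 from 0.186 to 6.33 CPM, with correlations of 0.79 and 0.88. Col4a1 and Col4a5, of different pairs, had correlations of 0.25 and 0.37. Col4a1 and Col4a2 were highest in the contractile-like cluster, and Col4a5 and Col4a6 in cluster 18. These correlations describe the 18 clusters only, which share libraries and depth, and the part of the overlapping exons of Col4a1 and Col4a2 in their correlation was not tested.

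**Figure D5:**
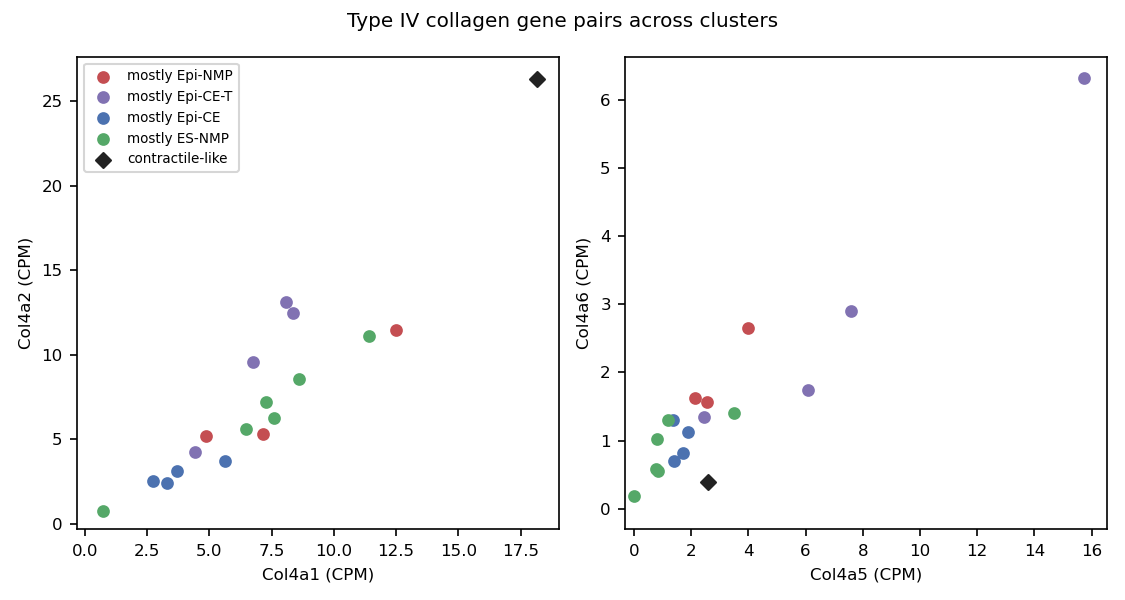
Level of Col4a2 against Col4a1 and of Col4a6 against Col4a5 in the 18 clusters, in CPM on linear axes, coloured by the library that gave most of a cluster's cells. The contractile-like cluster (diamond) lies at the top of the first pair, at 18.2 CPM for Col4a1, and low on the second, at 2.59 CPM for Col4a5.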

How the data were processed

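Single-cell RNA sequencing was analysed in 4 libraries, 1 per group, grouped by sample title. As deposited by the authors, the table gives raw UMI counts of each gene in each barcode, with Cell Ranger 1.3.1, Seurat 2.0 and genome build mm10 named in the submitters' processing notes. No source used here gives the annotation, the use of strand, the treatment of multi-mapping reads or the meaning of the TRUE mark. TRUE barcodes had at least 8011 UMIs and 2501 genes. Counts were summed per library and given as CPM with exact Poisson 95% intervals. Ratios carry exact conditional-binomial intervals. These cover counting error only, and no p-value was computed. Where a count was 0, 3 counts served as the floor.

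Members and lists were chosen with earlier results of these data known. Members with at least 10 CPM in a library are named, with the 5 highest and 5 lowest ratios per comparison among those with at least 200 UMIs. Partner genes named have at least 20 CPM. Clustering (scanpy 1.11.5: 10000 counts per cell, 2000 variable genes, 30 components, 15 neighbours, Leiden resolution 1.0) left out all genes matching the symbol rule, but not Col2a1 and Col9a1. Classes needed at least 3 markers and a marker among the leading genes of the cluster. The values of 1 member are not reported here, though the counts include it. Doublets were kept, with an alternative that left out the top 5% of Scrublet scores. Alternatives also used TMM factors (edgeR 4.0.16) and median-of-ratios size factors, totals without ribosomal and mitochondrial genes, means of per-cell CPM, all barcodes and other resolutions. Loci came from GENCODE M21 on GRCm38.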

Additional observations from a re-analysis of the deposited data

Results flagged for a closer look

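The following differences between libraries were singled out because the interval of a class over the other cells lay above 1 in one library and below 1 in another. The difference itself was not tested, since each culture has 1 library. Col4a1 in node or notochord-like cells was 0.380 times the level of the other cells in Epi-NMP and 3.45 times in Epi-CE. Col4a2 in the same class was 0.457 times the other cells in Epi-NMP, 1.22 times in Epi-CE-T and 1.96 times in Epi-CE. In Epi-NMP these rest on 6 Col4a1 and 7 Col4a2 UMIs in the class, whose cells in Epi-NMP and Epi-CE are mostly of cluster 10. Itgb3bp in the class was 0.706 times the other cells in Epi-NMP and 1.16 times in Epi-CE-T. Lamb1 in contractile-like cells was 0.545 times the other cells in Epi-CE and 2.16 times in ES-NMP.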

How the results depend on the processing

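No paired analysis was possible because each group has 1 library and the labels share no replicate numbers. Of the alternative values of the main counts and medians, 149 kept their size within 1.5 times (counts) or their spread (medians), and 9 moved. With 2-fold in place of 1.5-fold, Epi-CE over ES-NMP had 10 of 47 members higher and 8 lower. Of all genes there, 11.3% were higher and 8.20% lower by 2-fold or more. Epi-NMP over Epi-CE then had 7 of 42 members higher, against 5.59% of all genes. With means of per-cell CPM the median of Epi-CE-T over Epi-CE was 0.46. Genes 2-fold or more above other cells numbered 1 (resolution 2.0) or 2 (thinned cells) in place of 4 for caudal epiblast or NMP-like cells, and 4 (thinned cells) in place of 8 for paraxial mesoderm-like cells. With all barcodes they numbered 0 in place of 3 for neural-like cells and 17 in place of 26 for contractile-like cells, whose genes 2-fold or more below numbered 14 in place of 6. The neural-like class did not hold the same cells in both clusterings. It had 229 cells, 226 of them of ES-NMP, in the main clustering and 1170 with all barcodes. Of those 1170, 953 were in a cluster with 952 barcodes of Epi-NMP and a median depth of 4798 UMIs. The cause of these changes in counts was not tested, apart from the fewer genes measured after thinning (43 in place of 54). Of those for named genes, 792 stayed the same, 46 moved and 2 that were past 1.5-fold reversed: the log2 ratio of Col1a2 without contractile-like cells was 0.31 in Epi-CE over ES-NMP and 0.14 in Epi-NMP over ES-NMP. The intervals of both included equal levels, so the sign of these 2 ratios is not settled. Ratios within 1.5-fold that changed sign are not among those 2, and for Col1a1 in Epi-CE over ES-NMP the log2 ratio without these cells was 1.80 in place of -0.10. Depth limits most genes in Epi-NMP, where 1 UMI is worth most.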

Other observations

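The FALSE-marked barcodes of Epi-NMP enter the values above only where all barcodes were used. They had a median depth of 4720 UMIs, against 19252 in its TRUE barcodes. Itgb1 was at 102 CPM in FALSE and 111 CPM in TRUE barcodes, and Itgb3bp at 61.6 CPM in FALSE and 52.2 CPM in TRUE barcodes. Itga6 was at 19.3 CPM in FALSE and 50.4 CPM in TRUE barcodes, Lamb1 at 23.7 CPM in FALSE and 37.8 CPM in TRUE barcodes, and Col3a1 at 3.13 CPM (24 UMIs) in FALSE and 8.27 CPM in TRUE barcodes.

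Across libraries the laminin receptor chains changed their proportion. Per Itga6 UMI there were 0.0267 Itga3 UMIs in Epi-NMP (95% interval 0.0179 to 0.0384), 0.0801 in Epi-CE-T, 0.161 in Epi-CE and 0.121 in ES-NMP.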
